A study of Mus musculus with 10 samples.

Results

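The genes described here build the 3 kinds of junction that hold the cells of the epidermis to each other: desmosomes, tight junctions and gap junctions. They were 36 genes taken by symbol from the deposited table of 55421 genes, and they comprised desmosomal cadherins, armadillo proteins and desmoplakin, plakins and other desmosome-associated proteins, the classical epithelial cadherins, tight junction proteins, claudins and connexins. The study made ulcers by surgical excision in db/db mice, which lack a working leptin receptor and become obese and diabetic. The ointment group was ulcer tissue that received saline plus Fu Huang ointment, a preparation applied to the skin whose makeup the labels do not give, and the saline group was ulcer tissue that received saline alone, with 5 RNA libraries in each group. Both groups carried the same db/db mutation, and the study describes 7 days of administration. The labels do not give the sex, the age or the animal behind each library, so a p-value here covers only the variation among these 10 samples, part of which may be technical.

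Desmosomes tie the keratin filaments of neighbouring cells together: desmocollins and desmogleins span the gap, plakoglobin and plakophilins sit beneath them, and desmoplakin binds the keratins. Tight junctions seal the granular layer with claudins and occludin, which are anchored inside the cell by the scaffold proteins of the zonula occludens. Gap junctions are channels of connexins through which cells exchange ions and small molecules. Many of these genes change as keratinocytes leave the basal layer, and at a wound edge keratinocytes loosen their junctions while they migrate over the bed.

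Of the 36 junction genes, 2 had lower transcript levels in ointment ulcers than in saline ulcers, the desmocollin Dsc1 and the scaffold gene Tjp3, and 0 were higher, by edgeR's quasi-likelihood test with Benjamini-Hochberg adjustment over the 18509 genes tested at a threshold of 0.05. All 36 members passed the filter on low counts. The share called was 5.56% of the members, against 1.67% of all genes tested (0.983% lower and 0.692% higher). At an unadjusted p below 0.05 there were 12 members lower and 3 higher, 41.7% of the list, against 17.1% of all genes. The members were chosen with earlier results of these data known, so such shares are descriptions and not tests. The median log2 fold change of ointment over saline was -0.61 over the members and -0.0025 over all genes, with 25 members negative and 11 positive, where 50.3% of all genes were negative. Without saline library 1 the members' median was -0.33, and 2 members were called. DESeq2, an alternative test, called 9 members at the same threshold, 6 lower and 3 higher. It called 7% of the 21408 genes to which it gave an adjusted p (3.45% lower and 3.55% higher). On simulated counts with 200 changed genes, 38.7% of DESeq2 calls were false, against 4.6% of edgeR calls, so calls by DESeq2 alone are read with caution. DESeq2 called 1499 genes in these data and 204 in the simulation, so the false share may differ here.

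In 7 members (19.4%) the 5 ointment libraries did not overlap the 5 saline libraries in normalized level, against 6.54% of all genes tested (3.44% with ointment lower and 3.11% with ointment higher). The members with every ointment library below every saline library were Dsc1, Dsp, Tjp3, Cldn1 and Cldn23. Those with every ointment library above every saline library were Pkp2 and Cldn7. Levels are CPM, the estimated count of a gene relative to the TMM-scaled total of its library.

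**Figure D1:**
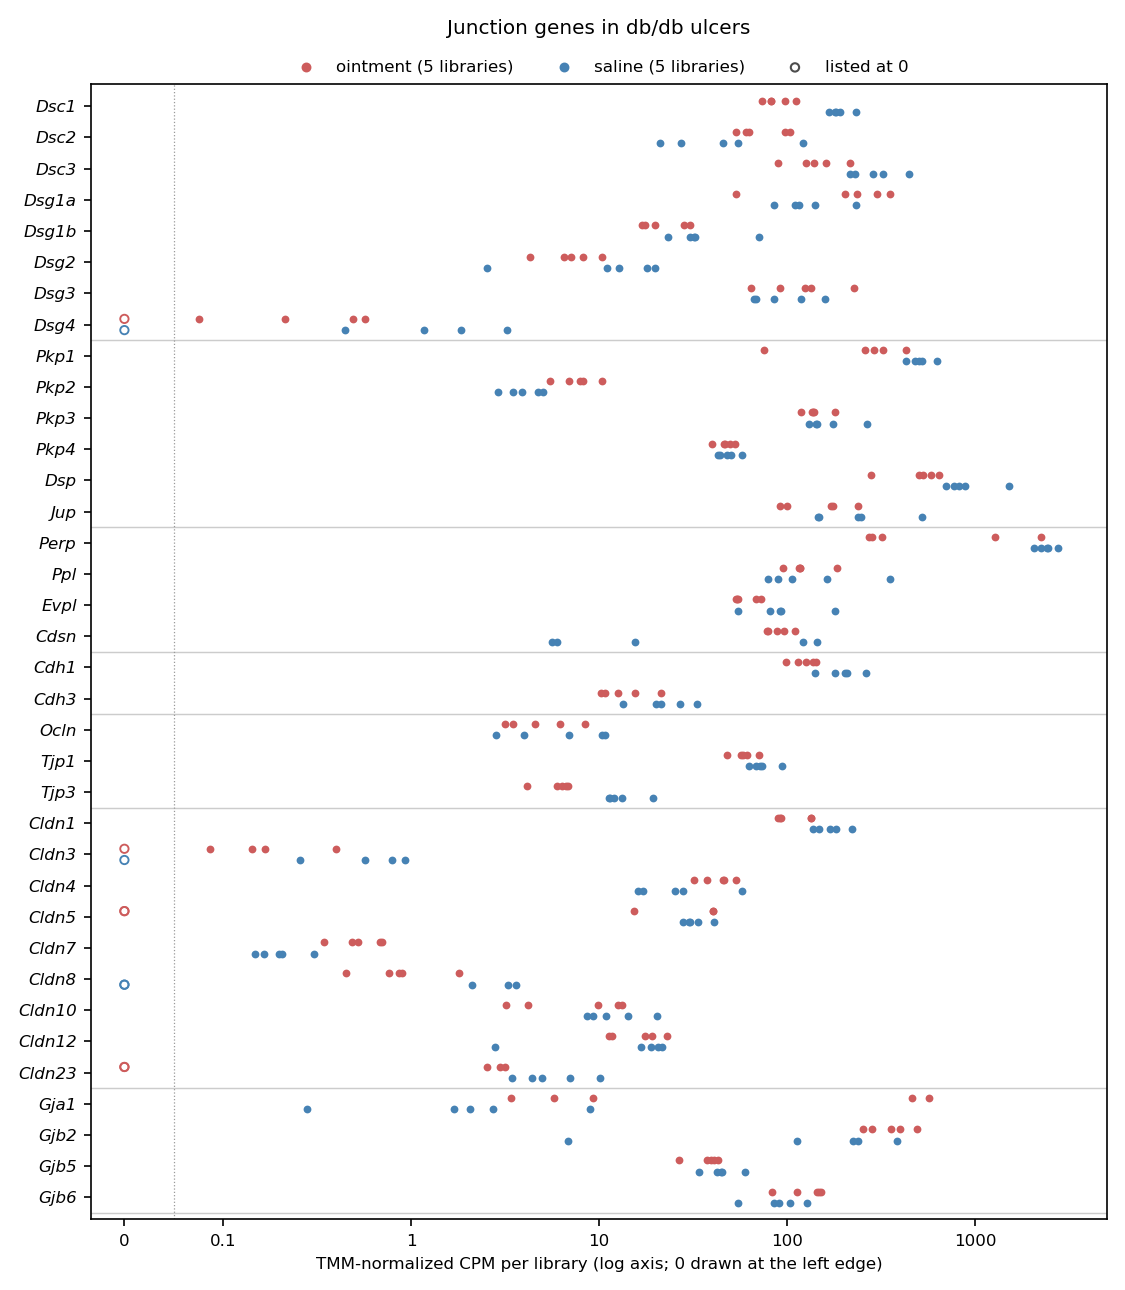
Level of each of the 36 junction genes in each library, in TMM-normalized CPM on a log axis, with ointment libraries as red points above saline libraries as blue points and values listed at 0 drawn as open circles at the left edge. Dsc1, Dsp, Tjp3, Cldn1, Cldn23, Pkp2 and Cldn7 are the members in which the colours do not overlap.

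**Figure D2:**
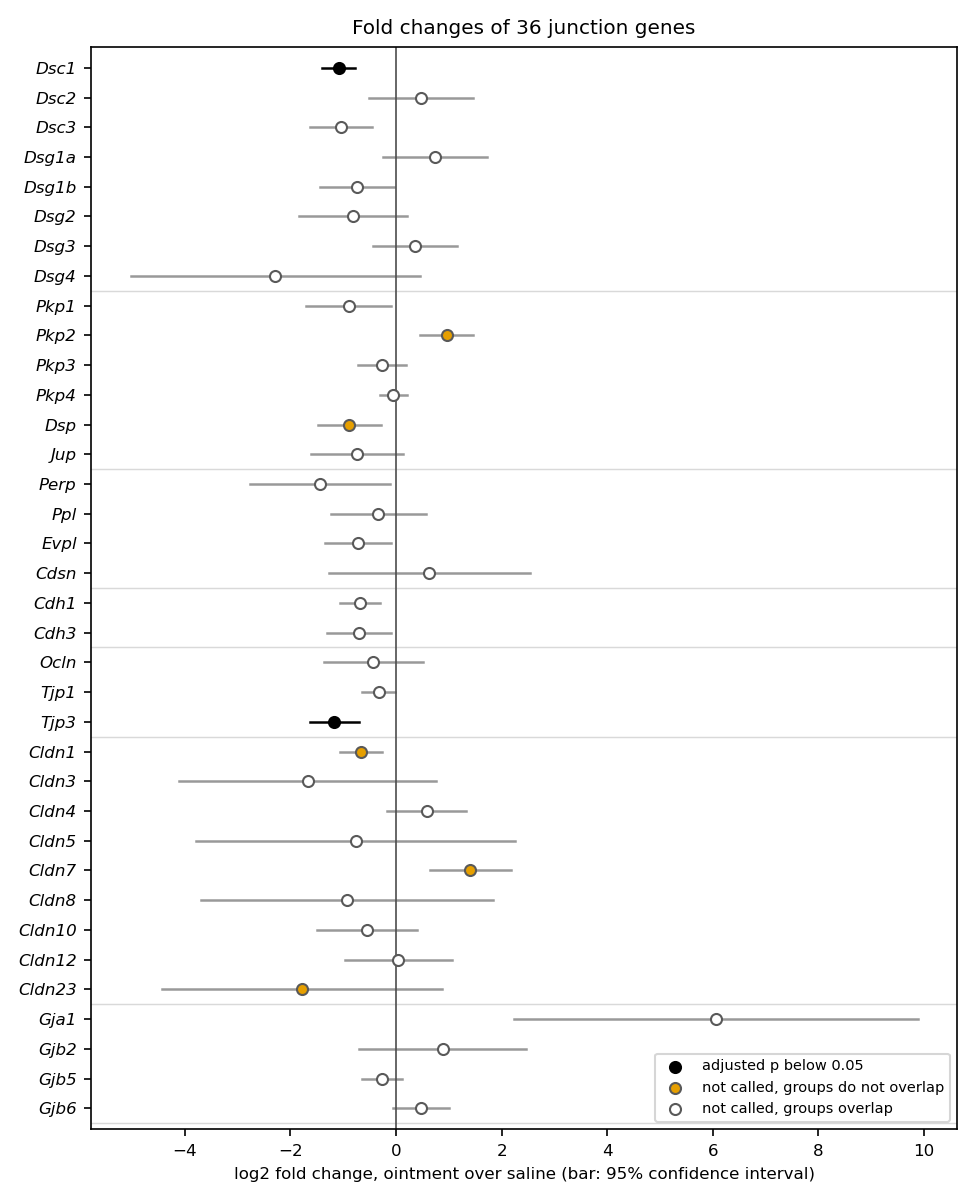
Fitted log2 fold change of ointment over saline for each junction gene, with bars for the 95% confidence interval from edgeR. Filled black points mark Dsc1 and Tjp3, the 2 genes past an adjusted p of 0.05, and orange points mark the other members whose groups did not overlap.

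The libraries held 47.8 to 62.9 M estimated counts with ointment and 58.2 to 62.7 M with saline. Pairs of libraries of the same group correlated at 0.933 to 0.956 on the log2 scale, pairs across groups at 0.906 to 0.948, and 310 genes were called in all. The basal keratinocyte markers, led by Krt5 and Krt14, summed to 11249 to 20349 CPM with ointment and 11335 to 20111 CPM with saline, so keratinocyte transcripts were abundant in every library. The suprabasal and cornified markers summed to 1568 to 3382 CPM with ointment and 4228 to 10189 CPM with saline, without overlap. With saline, Krt1 and Krt10 made up most of that sum, at means of 2644 and 1911 CPM in a mean sum of 6648 CPM. With ointment their share was smaller, at means of 649 and 547 CPM in a mean sum of 2368 CPM. Of the 13 tested markers 8 had negative and 5 positive log2 fold changes, and 2 were called, Krtdap lower and Krt2 higher. The hair follicle sheath and shaft markers summed to 10.6 to 38.3 CPM with ointment and 30.3 to 706 CPM with saline, with 5 of 10 tested markers called lower. The part of these markers in the junction results was not tested. In whole tissue, fewer cells of a type and less RNA per cell cannot be told apart.

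Among the 8 desmosomal cadherins, the adhesive proteins of the desmosome, only Dsc1 passed the test. Dsc1, the desmocollin of the upper epidermal layers, had 73.7, 96.9, 81.6, 111 and 81.8 CPM in ointment libraries 1 to 5, against 231, 189.6, 179, 181 and 166 CPM in saline libraries 1 to 5. The highest ointment library lay well below the lowest saline library. Dsc1 averaged 89.0 ± 14.8 CPM with ointment and 189 ± 24.9 CPM with saline (SD, n = 5 each), a log2 fold change of -1.09 with a standard error of 0.14 (95% confidence interval -1.40 to -0.78, edgeR adjusted p = 0.00823). The call was made whichever library was left out, with edgeR adjusted p between 0.00922 and 0.0293. The gene lies on chromosome 18 of GRCm38 at 20084184 to 20114871, minus strand, in a cluster with the other desmocollin and desmoglein genes, and 50-base stretches of its exons were found in no other gene.

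Dsc3, the desmocollin of the basal and lower layers, did not pass the test. It had 89.4, 138, 217, 125 and 161 CPM with ointment and 444, 287, 216, 322 and 228 CPM with saline, and the groups met at ointment library 3 and saline library 3. Its log2 fold change was -1.04 with a standard error of 0.26 (edgeR adjusted p = 0.0822). Dsc2, a desmocollin also found in simple epithelia and heart, went the other way in value, at 75.3 ± 22.9 CPM with ointment and 54.0 ± 40.1 CPM with saline (SD, n = 5 each), a log2 fold change of 0.48 (standard error 0.44).

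Per kilobase of exon, the 3 desmocollins together stood at 41.3 to 68.1 CPM per kb with ointment and 79.5 to 151 CPM per kb with saline, without overlap. Dsc2 made up 24.6%, 20.4%, 17.3%, 28.9% and 29.8% of that sum with ointment, and 15.2%, 5.36%, 5.04%, 9.81% and 10.3% with saline. Every ointment library thus had a larger Dsc2 share than any saline library, with Dsc3 the largest component in 10 of 10 libraries. These shares are descriptions and were not tested.

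The 5 desmogleins had log2 fold changes of both signs, and 0 of 5 passed the test. Dsg1a and Dsg1b are mouse copies of desmoglein 1, the desmoglein of the upper epidermis and the target of autoantibodies in pemphigus foliaceus. Another copy, Dsg1c, is not among the 36 genes and is named here after its values were seen, at 1.48 ± 1.68 CPM with ointment and 1.18 ± 0.65 CPM with saline (SD, n = 5 each). Dsg1a had 228 ± 114 CPM with ointment and 136 ± 56.4 CPM with saline (SD, n = 5 each), and its log2 fold change of 0.74 (standard error 0.44) was opposite in sign to the -0.74 (standard error 0.31) of Dsg1b. Dsg1b stood at 16.9 to 30.4 CPM with ointment and 23.1 to 70.8 CPM with saline, where saline library 1 was far above the rest. Of the 50-base stretches of Dsg1b, 45.5% also occur in Dsg1a, and 31.6% of those of Dsg1a occur in Dsg1b, so how the reads were divided between this pair is uncertain.

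Dsg3, the desmoglein of the basal layers and the target in pemphigus vulgaris, had 64.3 to 226 CPM with ointment and 66.3 to 158 CPM with saline, largely overlapping (log2 fold change 0.36, standard error 0.36). Dsg2, which is also found in simple epithelia, had 4.28 to 10.4 CPM with ointment and 2.54 to 19.7 CPM with saline (log2 fold change -0.81, standard error 0.46). Saline library 5 was the lowest of all 10 for Dsg2 and the other 4 saline libraries were the highest. Dsg4, the desmoglein of the hair shaft, was listed at 0 in ointment library 1 and saline library 5 and reached 0.573 CPM with ointment and 3.23 CPM with saline, in saline library 1, the library with the highest hair follicle sum. Per kilobase, Dsg1b made up 6.01% to 12.7% of the sum of these 5 desmogleins, without Dsg1c, with ointment and 14.6% to 25.1% with saline, without overlap. This share depends on how reads were divided between Dsg1a and Dsg1b, which is uncertain.

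**Figure D3:**
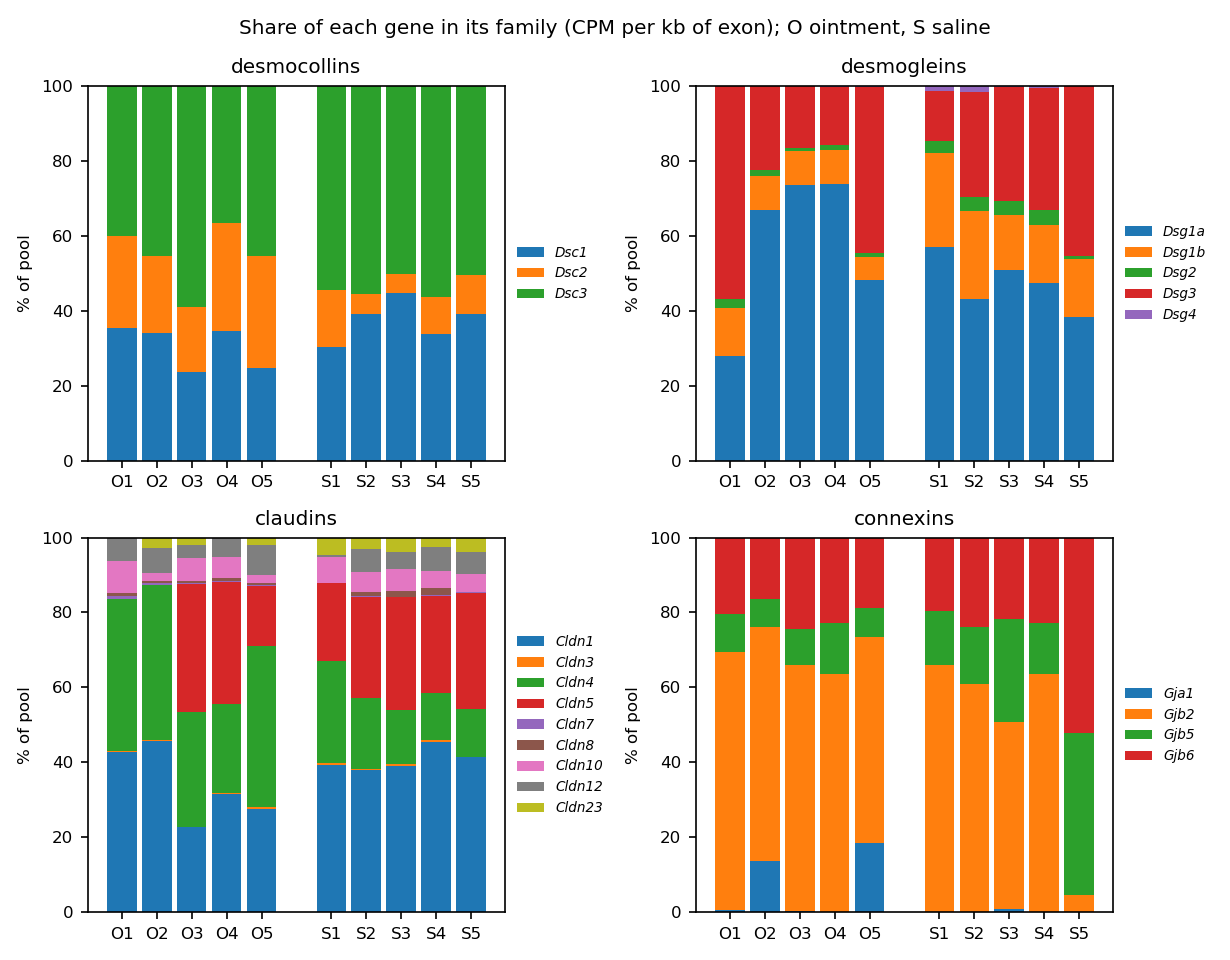
Share of each gene in the summed CPM per kilobase of exon of its family, by library, for desmocollins, desmogleins, claudins and connexins, with ointment libraries (O1 to O5) left of saline libraries (S1 to S5). The Dsc2 share is 17.3% to 29.8% with ointment and 5.04% to 15.2% with saline, and saline library 5 stands apart among the connexins with a Gjb2 share of 4.69%.

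Beneath the cadherins, 0 of 6 armadillo and desmoplakin genes passed the test, but in 2 of them the groups did not overlap, in opposite directions. Dsp encodes desmoplakin, the link from the desmosome to keratin filaments. It had 523, 279, 504, 643 and 581 CPM with ointment and 1506, 696, 821, 880.1 and 769 CPM with saline. The gap between the groups was small beside the height of saline library 1, which was far above the other saline libraries. The log2 fold change of Dsp was -0.89 with a standard error of 0.27 (95% confidence interval -1.48 to -0.29, edgeR adjusted p = 0.124), and -0.65 without saline library 1. DESeq2 gave Dsp an adjusted p of 0.0415.

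Pkp2, the main plakophilin of the heart and a minor one in epidermis, was the only desmosomal member with every ointment library above every saline library. It had 10.4, 7.87, 5.48, 8.24 and 6.89 CPM with ointment and 3.48, 4.71, 2.89, 3.88 and 5.01 CPM with saline. Its log2 fold change was 0.96 with a standard error of 0.23 (95% confidence interval 0.46 to 1.46, edgeR adjusted p = 0.0664, DESeq2 adjusted p = 0.00202). Per kilobase, Pkp2 supplied 1.01% to 3.36% of the plakophilin sum with ointment and 0.315% to 0.668% with saline, without overlap.

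The other plakophilins carry nearly all of that sum. Pkp1, the plakophilin of the suprabasal layers, had 74.7, 429, 260.2, 321 and 291 CPM with ointment and 626, 429, 503, 520.1 and 479 CPM with saline, touching at ointment library 2 and saline library 2 (log2 fold change -0.89, standard error 0.36, edgeR adjusted p = 0.239). Ointment library 1 was the low one for Pkp1. The summed basal markers were also lowest there, but narrowly, at 11249 CPM against 11335 CPM in saline library 3. By gene, Krt14, Itgb4 and Itga3 were lowest there and the other basal markers were not. Pkp3, present in all living layers, had 118 to 180.2 CPM with ointment and 130.1 to 265 CPM with saline. Pkp4, which also binds classical cadherins, was the steadiest member at 46.8 ± 4.8 CPM with ointment and 48.4 ± 6.0 CPM with saline (SD, n = 5 each), with a 95% confidence interval of the log2 fold change of -0.31 to 0.21. Jup, plakoglobin, had 91.7 to 238 CPM with ointment and 146 to 517 CPM with saline (log2 fold change -0.74, standard error 0.39), with saline library 1 again the highest.

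The stretch from 250 bases before to 50 after the start of Dsp is shown because its groups did not overlap, and it can be set beside those of the tight junction genes further on. It is RefSeq sequence of GRCm38.p6 at chr13:38151044-38151343, plus strand, with capitals for any match to 4 motifs, here CAGGTG (the E-box bound by Snail and Zeb repressors, CACCTG on the other strand).
Dsp: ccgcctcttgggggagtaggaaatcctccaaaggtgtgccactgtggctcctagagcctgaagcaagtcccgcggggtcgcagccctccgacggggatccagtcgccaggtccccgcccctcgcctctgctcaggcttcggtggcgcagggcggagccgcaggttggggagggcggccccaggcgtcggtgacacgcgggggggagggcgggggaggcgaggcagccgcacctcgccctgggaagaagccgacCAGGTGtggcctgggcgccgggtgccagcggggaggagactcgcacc
The letters searched, on both strands, were this E-box, the grainyhead-like core AACCNGTT, the AP-1 site TGANTCA and the TATA box TATAAA, and in the windows printed here no 2 matches overlap. Outside the desmosomal cadherins, a promoter was found for 18 members, with 26 starts, and 13 of the 26 held the E-box, against 20.2% of 32851 mouse promoters. The grainyhead-like core was in 2 of the 26, against 2.09% of all promoters, the AP-1 site in 2, against 7.81%, and the TATA box in 1, against 13.6%. A match is a description of letters, not a site or a cause, and several starts belong to 1 gene.

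Of the 4 desmosome-associated and cornified-layer genes 0 passed the test, and 2 of them jumped between libraries. Perp, a membrane protein of desmosomes, had 1266, 2233, 281, 318 and 272 CPM with ointment and 2758, 2058, 2234, 2408 and 2434 CPM with saline. Ointment libraries 3, 4 and 5 were far below all others, while ointment library 2 lay within the saline range. The log2 fold change of Perp was -1.44 with a standard error of 0.60 (95% confidence interval -2.77 to -0.12, edgeR adjusted p = 0.250), and without ointment library 2 it was -2.15 (edgeR adjusted p = 0.0840). Per kilobase, Perp had the highest group mean of the junction genes, at 448 ± 445 CPM per kb with ointment and 1218 ± 133 CPM per kb with saline (SD, n = 5 each). In ointment libraries 3 and 5 Gjb2 was above it, at 148 and 164 CPM per kb against 144 and 139 for Perp.

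Cdsn encodes corneodesmosin, the extracellular glue of the cornified layer. It had 79.3, 95.8, 78.1, 109.8 and 87.7 CPM with ointment and 5.99, 144, 5.60, 15.5 and 121 CPM with saline. Saline libraries 2 and 5 were above every ointment library and the other 3 saline libraries were far below, so the groups overlapped. The log2 fold change of Cdsn was 0.63 with a standard error of 0.86, 1.30 without saline library 2 and 1.67 with limma voom, which did not call it either. The plakins Evpl and Ppl, which prime the cornified envelope, were less uneven. Evpl had 53.5 to 72.9 CPM with ointment and 54.7 to 179.5 CPM with saline (log2 fold change -0.72, standard error 0.28, edgeR adjusted p = 0.219), and saline library 2 lay among the ointment libraries. Ppl had 94.7 to 184 CPM with ointment and 79.2 to 352 CPM with saline, and its log2 fold change of -0.33 became 0.19 without saline library 1.

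**Figure D4:**
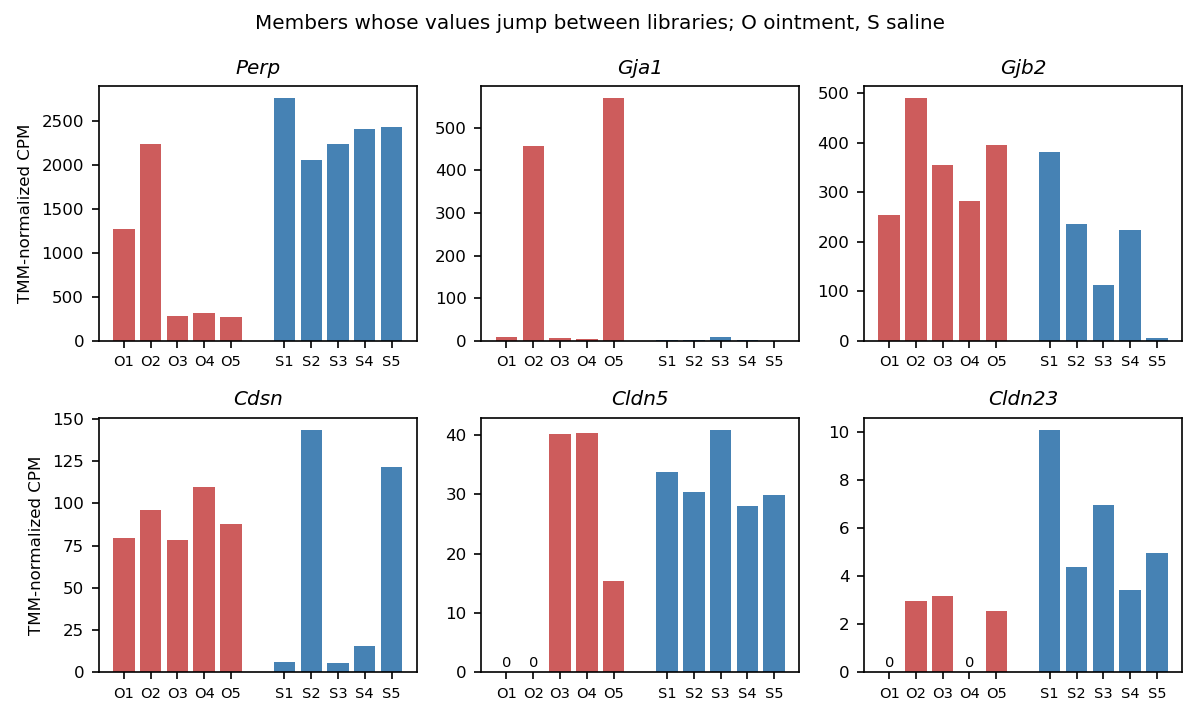
Level in TMM-normalized CPM in each library for 6 members with uneven values, with ointment libraries (O1 to O5, red) left of saline libraries (S1 to S5, blue) and a 0 where the deposited value is 0. Gja1 is high in ointment libraries 2 and 5, Perp is low in ointment libraries 3 to 5, and Cdsn is low in saline libraries 1, 3 and 4.

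Both classical cadherins had lower means with ointment, and 0 of 2 passed the test. Cdh1, E-cadherin, the adherens junction cadherin of all epidermal layers, had 114, 98.7, 126, 141 and 137 CPM with ointment and 262, 180.0, 201, 209 and 140.6 CPM with saline. The highest ointment library exceeded only saline library 5. The log2 fold change of Cdh1 was -0.69 with a standard error of 0.17 (95% confidence interval -1.06 to -0.31, edgeR adjusted p = 0.0759), and without saline library 5 it was called at 0.0444 by edgeR. Cdh3, P-cadherin, which marks basal cells and hair matrix, had 10.3 to 21.3 CPM with ointment and 13.5 to 33.2 CPM with saline (log2 fold change -0.70, standard error 0.27, edgeR adjusted p = 0.225).

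At the tight junction, Tjp3 was the only one of 3 scaffold and occludin genes to pass. Tjp3 encodes zonula occludens protein 3, a scaffold that binds claudins. It had 4.15, 6.69, 5.95, 6.83 and 6.38 CPM in ointment libraries 1 to 5, against 19.4, 11.4, 13.3, 11.3 and 11.9 CPM in saline libraries 1 to 5. The ointment libraries were all below the saline libraries, and saline library 1 stood well above the other saline libraries. The fitted log2 fold change of Tjp3 was -1.17 with a standard error of 0.21 (95% confidence interval -1.63 to -0.70, edgeR adjusted p = 0.0285). The call was kept in 5 of 10 fits with 1 library left out and was lost without ointment library 1, 2, 3 or 5 or saline library 3, where the edgeR adjusted p reached 0.0738 and the log2 fold change stayed between -1.24 and -1.01. These levels rest on 195 to 381 estimated counts per ointment library and 712 to 1167 per saline library. The gene lies on chromosome 10 of GRCm38 at 81273207 to 81291581, minus strand, and 40 bases of its exons overlap those of Apba3 on the opposite strand, which had a log2 fold change of -0.01 (edgeR adjusted p = 0.98).

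The partners of Tjp3 were closer between the groups. Tjp1, the general zonula occludens scaffold, had 47.6 to 70.5 CPM with ointment and 62.8 to 93.7 CPM with saline (log2 fold change -0.33, standard error 0.14, edgeR adjusted p = 0.254). Ocln, occludin, had 3.14 to 8.46 CPM with ointment and 2.82 to 10.7 CPM with saline, overlapping almost throughout (log2 fold change -0.43, standard error 0.42).

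Of the 9 claudins, the sealing proteins of the tight junction, 0 passed the test, and in 3 the groups did not overlap. Cldn1, which the epidermal water barrier of mice depends on, had 89.7, 133, 91.5, 134 and 92.1 CPM with ointment and 219, 147, 182, 168 and 137 CPM with saline. The groups were set apart by a narrow margin between ointment libraries 2 and 4 and saline library 5. The log2 fold change of Cldn1 was -0.66 with a standard error of 0.18 (95% confidence interval -1.05 to -0.26, edgeR adjusted p = 0.0957, DESeq2 adjusted p = 0.0290). Cldn23, a claudin of differentiated epithelium, was listed at 0 in ointment libraries 1 and 4 and at 2.99, 3.17 and 2.54 CPM in ointment libraries 2, 3 and 5, against 10.1, 4.37, 6.96, 3.45 and 4.99 CPM with saline. Its fit was wide (95% confidence interval of the log2 fold change -4.43 to 0.88, edgeR adjusted p = 0.514).

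Cldn7, a claudin of simple and glandular epithelia, was among the least abundant members and the claudin with ointment above saline in every library. It had 0.703, 0.523, 0.347, 0.484 and 0.681 CPM with ointment and 0.166, 0.305, 0.149, 0.206 and 0.198 CPM with saline, from 21 to 36 estimated counts per ointment library and 9 to 19 per saline library. The log2 fold change of Cldn7 was 1.41 with a standard error of 0.34 (95% confidence interval 0.64 to 2.17, edgeR adjusted p = 0.0737, DESeq2 adjusted p = 0.0101). Cldn4, a claudin of suprabasal and glandular cells, had 31.8, 45.3, 45.9, 37.6 and 53.7 CPM with ointment and 57.2, 27.8, 25.2, 17.2 and 16.1 CPM with saline. Saline library 1 was the highest of all 10 for Cldn4 and the other 4 saline libraries were the lowest, and the log2 fold change was 0.58 (standard error 0.34, edgeR adjusted p = 0.431), or 0.98 without saline library 1 (edgeR adjusted p = 0.0898).

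The promoter windows of Tjp3, of Cldn1 and of the upstream start of Cldn7 are shown because the groups of these genes did not overlap, the first pair lower with ointment and Cldn7 higher. They are RefSeq sequence of GRCm38.p6, read 5′ to 3′ on the gene's strand with motif letters in capitals as for Dsp: Tjp3 at chr10:81291532-81291831 (minus), Cldn1 at chr16:26371790-26372089 (minus) and Cldn7 at chr11:69964529-69964828 (plus).
Tjp3: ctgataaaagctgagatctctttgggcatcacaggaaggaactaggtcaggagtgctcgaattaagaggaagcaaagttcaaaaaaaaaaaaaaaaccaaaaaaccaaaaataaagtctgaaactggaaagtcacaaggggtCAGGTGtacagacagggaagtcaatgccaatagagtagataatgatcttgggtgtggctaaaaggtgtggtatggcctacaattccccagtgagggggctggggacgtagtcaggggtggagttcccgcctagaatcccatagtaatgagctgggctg
Cldn1: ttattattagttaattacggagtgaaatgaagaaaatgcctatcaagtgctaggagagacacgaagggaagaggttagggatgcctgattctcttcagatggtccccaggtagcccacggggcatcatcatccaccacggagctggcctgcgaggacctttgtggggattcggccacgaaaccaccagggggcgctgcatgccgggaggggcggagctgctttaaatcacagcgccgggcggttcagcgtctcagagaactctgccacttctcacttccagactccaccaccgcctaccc
Cldn7: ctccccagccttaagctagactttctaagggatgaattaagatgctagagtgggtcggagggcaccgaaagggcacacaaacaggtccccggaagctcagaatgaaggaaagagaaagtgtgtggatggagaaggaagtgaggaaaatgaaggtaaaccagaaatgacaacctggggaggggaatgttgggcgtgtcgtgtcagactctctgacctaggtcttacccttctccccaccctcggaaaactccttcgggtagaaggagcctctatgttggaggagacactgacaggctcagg
Tjp3 and Dsp, both with ointment below saline, each hold the E-box once in the window shown, while Cldn1, also with ointment below saline, and this start of Cldn7 hold none of the 4 motifs. The second start of Cldn7 holds 2 E-boxes, and a second start of Tjp3 holds 1. Over all starts, the members with an E-box had log2 fold changes of both signs. They were positive for Cdsn, Cldn4, Cldn7, Gjb2 and Gjb6, and negative for Cldn3, Dsp, Ocln, Pkp4 and Tjp3.

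The remaining claudins overlapped between the groups. Cldn5, the claudin of endothelial cells, was listed at 0 in ointment libraries 1 and 2 and had 40.1, 40.3 and 15.3 CPM in the other ointment libraries, against 33.7, 30.4, 40.9, 28.1 and 29.9 CPM with saline. In the libraries listing Cldn5 at 0, Cdh5, the cadherin of endothelial junctions, had 175 and 81.8 CPM, so endothelial transcripts were present there. The 10 endothelial markers summed to 465 to 783 CPM with ointment and 711 to 1022 CPM with saline, and 0 of 10 were called. Cldn10 had 3.21 to 13.3 CPM with ointment and 8.59 to 20.4 CPM with saline (log2 fold change -0.56, standard error 0.43). Cldn12, a claudin with no binding motif for zonula occludens scaffolds, had 11.2 to 22.9 CPM with ointment and 2.78 to 21.5 CPM with saline, where saline library 1 was far the lowest.

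The other 2 claudins were low and were listed at 0 in some libraries. Cldn3 was listed at 0 in ointment library 3 and saline library 5 and reached 0.397 CPM with ointment and 0.932 CPM with saline, from at most 56 estimated counts in a library. Cldn8 had 0.454 to 1.79 CPM with ointment, and with saline it was listed at 0 in libraries 1 and 5 and had 2.12, 3.64 and 3.29 CPM in the others, from 132, 220 and 208 estimated counts. Per kilobase, Cldn1, Cldn4 and Cldn5 made up most of the claudin sum, with Cldn4 at 23.7% to 43.0% with ointment and 12.4% to 27.3% with saline, an overlap that only saline library 1 produced. That sum includes Cldn5, listed at 0 in ointment libraries 1 and 2, so the Cldn4 shares there, 40.5% and 41.4%, may be too high.

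**Figure D5:**
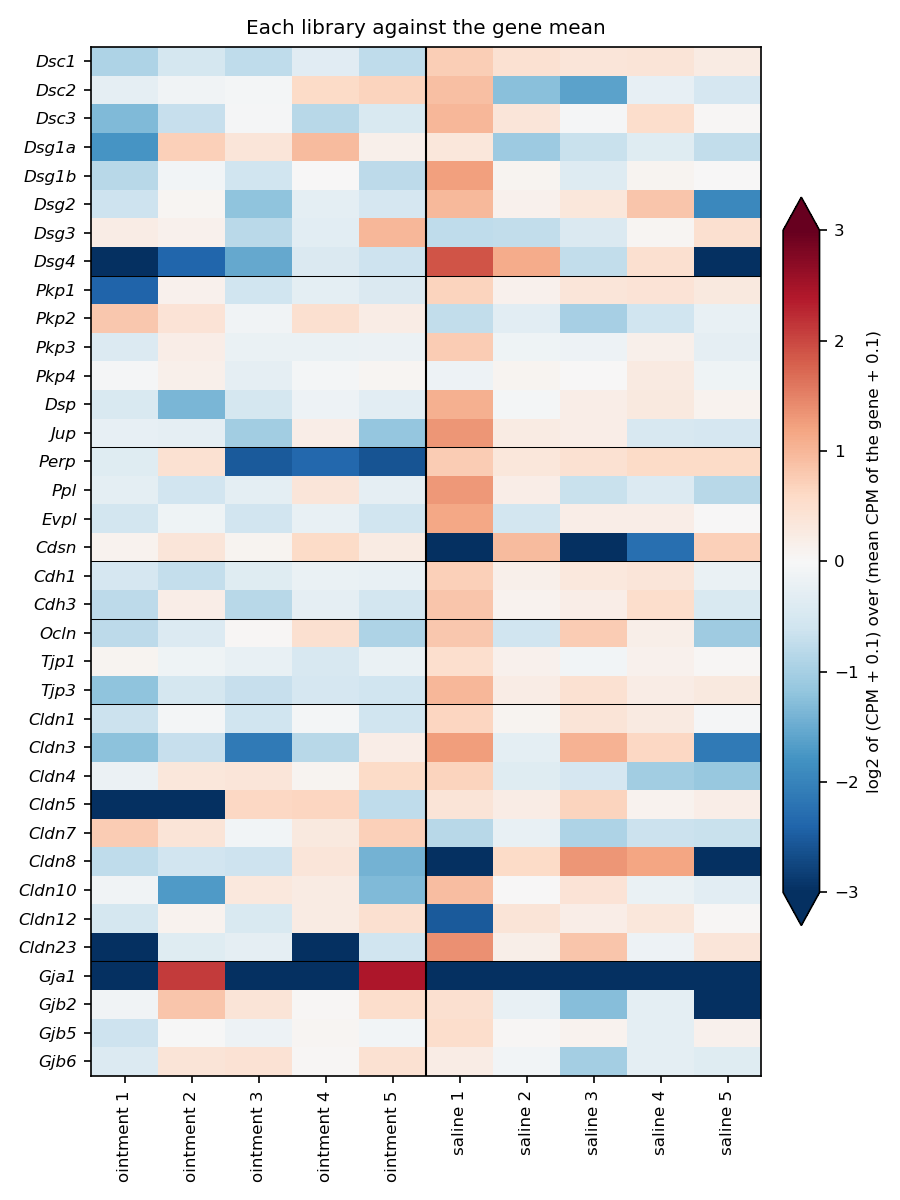
Level of each junction gene in each library relative to the gene's mean over the 10 libraries, as log2 of CPM + 0.1 over mean CPM + 0.1, with ointment libraries left of saline libraries, red above and blue below the mean and colours capped at 3 in either direction. Saline library 1 is red in most rows, where it is the highest of 10 in 24 of 36 members.

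Of the 4 connexins, the gap junction proteins, 0 passed the test, and 3 had positive and 1 had negative log2 fold changes. Gja1, the most widely expressed connexin of skin, had 9.25, 458, 5.76, 3.40 and 569.6 CPM with ointment and 2.06, 1.69, 8.94, 2.72 and 0.281 CPM with saline. Ointment libraries 2 and 5 held almost all of it, and the other 3 ointment libraries overlapped the saline libraries. Within the ointment group the highest library was 167 times the lowest. The cause of this spread was not tested, so the low values are not read as low expression of the gene. The fitted log2 fold change of Gja1 was 6.06 (standard error 1.72, 95% confidence interval 2.23 to 9.88, edgeR adjusted p = 0.109). It was 5.24 without ointment library 5, 6.93 without saline library 3 and 3.78 with limma voom. DESeq2 called Gja1 with an adjusted p of 0.000355 on the same values.

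Gjb2 is a connexin that is raised in hyperproliferative and wounded epidermis. It had 254, 490, 355, 282 and 396 CPM with ointment and 382, 236, 113, 224 and 6.84 CPM with saline. Every ointment library was above saline libraries 2 to 5, saline library 1 lay within the ointment range, and saline library 5 was by far the lowest (log2 fold change 0.88, standard error 0.71, edgeR adjusted p = 0.602). Gjb6, whose gene is the neighbour of Gjb2 on chromosome 14, had 82.8 to 151 CPM with ointment and 54.4 to 127 CPM with saline (log2 fold change 0.47, standard error 0.24, edgeR adjusted p = 0.349). Gjb6 was not low in saline library 5, at 84.5 CPM. Gjb5, a connexin of stratified epithelium and placenta, had 26.6 to 43.0 CPM with ointment and 33.8 to 59.8 CPM with saline (log2 fold change -0.27, 95% confidence interval -0.65 to 0.12).

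Saline library 1 was the highest of the 10 libraries for 24 of 36 members (66.7%), against 13.8% of all genes tested, and ointment library 1 was the lowest for 12 (33.3%), against 11.5%. Saline library 1 also had the highest sums of suprabasal and cornified markers, at 10189 CPM, and of hair follicle markers, at 706 CPM. Ointment library 1 had the lowest basal keratinocyte sum, at 11249 CPM, and the lowest hair follicle sum, at 10.6 CPM. Without saline library 1, the log2 fold changes of Dsg1b, Jup and Evpl were -0.39, -0.33 and -0.41. The part of these libraries' makeup in the junction values was not tested. With saline library 1 and ointment library 5 both left out, 1 member was called, Dsc1 (edgeR adjusted p = 0.0466), and Tjp3 had an edgeR adjusted p of 0.0965. The members' median was then -0.23.

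The jumps were not particular to junction genes. Among the 12303 genes averaging at least 5 CPM, 849 (6.9%) spanned 10-fold or more within a group that itself averaged at least that level, and among 31 such members 4 did (12.9%): Cdsn, Cldn5, Gja1 and Gjb2. Of genes with 1 exon, 59.9% of 212 had such a spread, against 5.96% of 12088 genes with more exons. Cldn3, Cldn4, Cldn5 and Cldn8 are the members with 1 exon, and 3 of these 4 were listed at 0 in some library, against 2 of the 32 others, Dsg4 and Cldn23. There were 130 genes listed at 0 in at least 1 library and at 20 CPM or more in another, of which 65.4% had 1 exon, and they included the broadly expressed genes Hnrnpa0, Pcbp1 and Junb. A value listed at 0 in these files is therefore not read as absence of the transcript.

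The other genes of the same pathways were read from 5 lists, and edgeR called 0 genes in each. Of 20 tested further tight junction genes, 5 were lower and 1 higher at an unadjusted p below 0.05, where 8.56% of all genes were lower and 8.59% higher. Jam2, a junctional adhesion molecule, had 21.9 ± 6.2 CPM with ointment and 41.3 ± 9.9 CPM with saline (SD, n = 5 each, log2 fold change -0.91, edgeR adjusted p = 0.0803), without overlap. Cldn15, a claudin of simple epithelia, had the opposite sign at 0.76 (edgeR adjusted p = 0.0908), and Marveld3, a relative of occludin, had -0.81 (edgeR adjusted p = 0.143), each without overlap. Of 12 further connexins and pannexins, 1 was lower and 0 higher at an unadjusted p below 0.05. Those with the smallest p were Gjc3 (log2 fold change -1.66), Gjc1 (0.88) and Gja4 (-0.49), with edgeR adjusted p of 0.150, 0.391 and 0.426.

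Of 15 further cadherins, catenins and nectins, 3 were lower and 0 higher at an unadjusted p below 0.05. They were led by Nectin1, an adherens junction immunoglobulin protein (log2 fold change -0.63, edgeR adjusted p = 0.121), Cdh13 (-0.79, edgeR adjusted p = 0.191) and Cdh4 (-1.25, edgeR adjusted p = 0.290). Of 11 further desmosomal, plakin and corneodesmosome genes, 3 were lower and 0 higher at that level. Klk5, a protease that cuts corneodesmosomes, had 36.7 ± 9.1 CPM with ointment and 69 ± 16.4 CPM with saline (SD, n = 5 each, log2 fold change -0.91, edgeR adjusted p = 0.0607), without overlap. Casp14, the caspase of the cornified layer, and Klk14, another of these proteases, had log2 fold changes of -1.69 and -2.21 (edgeR adjusted p = 0.159 and 0.228). Of 15 transcription factors tied to the epithelial junction programme, 6 were lower and 0 higher at an unadjusted p below 0.05. Beside this count and those of the lists above, 8.56% of all genes were lower and 8.59% higher at that level. Gata3, which directs epidermal differentiation, had a log2 fold change of -1.16 (edgeR adjusted p = 0.0564). The grainyhead-like factors Grhl2 and Grhl1, regulators of junction genes, had -0.80 and -1.06 (edgeR adjusted p = 0.140 and 0.141). The groups overlapped in Gata3, Grhl2 and Grhl1.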

How the data were processed

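Ulcer tissue RNA was sequenced in 10 libraries, made with a SMARTer mRNA kit that is not stated to keep strand, per the labels' protocols. The authors deposited a single table of whole numbers per gene, which they named raw counts, without normalization. Per the submitters' processing notes the genome was GRCm38 (mm10). No aligner, counter or annotation version is given in the sources used here. In genes with a single annotated transcript, a value of 4 occurred 6129 times and a value of 8 occurred 3017 times, more often than 3 (3025 times) and 7 (1236 times), so the deposited values were handled here as estimated counts, an inference from the values that no source states. Gene structure came from GENCODE mouse release M21, in which 55154 of 55421 IDs were found, and promoter sequence from RefSeq.

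Groups were compared over the whole table with edgeR 4.0.16 (R 4.3.3): TMM scaling, filterByExpr (minimum count 10, minimum total 15), and the robust quasi-likelihood F-test, two-sided, with group as the only term and Benjamini-Hochberg adjustment over all genes tested. Intervals are at 95%. The alternatives were 3 other scalings, other filters, DESeq2 1.42.0, limma 3.58.1 voom with sample weights, no robust dispersion, values divided by 4, the replicate number as a block, and libraries left out.

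On simulated counts with 200 changed genes, edgeR recovered 16% of 2-fold and 67% of 4-fold changes with 4.6% of 87 calls false. DESeq2 recovered 41% and 84% with 38.7% of 204 calls false, and voom 15% and 64% with 0% of 79 calls false.

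All members were named. From each pathway list up to 3 genes with the smallest p, and from each marker list up to 2 and every gene called, were named, and any other gene was chosen after its values were seen. The members and lists were chosen with earlier results of these data known.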

Additional observations from a re-analysis of the deposited data

Results flagged for a closer look

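Each member was examined in each group for a library whose gap to its nearest neighbour was an unusually large part of the group's range. The cutoff was 0.71 for 5 libraries, which normally distributed values exceed in about 1 in 20 groups. CPM need not follow that distribution and the groups share libraries, so the comparison is not a test. The cutoff was passed in 8 of 72 groups (11.1%), and in 6 of them the library was saline 1. Among saline ulcers, library 1 was the highest for Dsg1b (70.8 CPM, the others 23.1 to 32.2, gap 0.809 of the range), Dsp (1506 CPM, the others 696 to 880.1, gap 0.773), Tjp3 (19.4 CPM, the others 11.3 to 13.3, gap 0.754), Jup (517 CPM, the others 146 to 245, gap 0.733) and Cldn4 (57.2 CPM, the others 16.1 to 27.8, gap 0.714). It was the lowest for Cldn12 (2.78 CPM, the others 16.7 to 21.5, gap 0.743). Saline library 3 was the highest of its group for Gja1 (8.94 CPM, the others 0.281 to 2.72, gap 0.718). Ointment library 4 was the highest of its group for Ppl (184 CPM, the others 94.7 to 117, gap 0.748). The cause was not tested.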

How the results depend on the processing

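The 310 genes and 2 junction genes called by edgeR became 1499 and 9 with DESeq2, 59 and 1 with 4 libraries per group (without saline 1 and ointment 5), and 102 to 422 and 1 to 3 with 1 library left out. The cause was not tested, though the last fits have fewer samples. With the replicate number as a block, 0 genes and 0 junction genes were called (10 junction genes at an unadjusted p below 0.05), and Dsc1 had an adjusted p of 0.157 and Tjp3 of 0.222. Same-numbered libraries did not deviate together (correlations -0.101 to 0.0686, 1 of 5 best with its own number), so no pairing by number was seen. The labels state no pairing, and these correlations cannot show that the samples were unpaired. Under the other 8 settings the same 2 junction genes were called, with 212 to 353 genes in all. The members whose groups do not overlap were 7 to 10 under 3 other scalings, added after the data were seen. The share of all genes under those scalings is not given here, so the range is a description of these members only. Of the members' log2 fold changes, 5 changed sign under some setting: Dsg3 (-0.0600 with 4 libraries per group), Ppl (0.22 with 4 libraries per group, -0.50 to 0.19 with 1 left out), Pkp4 (-0.10 to 0.0085 with 1 left out), Cldn8 (1.49 with voom, 0.57 with the block) and the log2 fold change of Cldn12 (-0.0142 with library sizes alone, -0.38 with 4 libraries per group, -0.24 to 0.18 with 1 left out). Other members moved by more than 1.5 times in fold in fits that did not call them: with voom the log2 fold change of Cldn5 was -4.56, the log2 fold change of Cldn23 was -3.88 and the log2 fold change of Gjb2 was 1.73, and Dsg4 was -1.68 without saline 1 and Cldn3 -2.34 without ointment 5. With the block the log2 fold change of Cldn5 was -2.45, the log2 fold change of Cldn23 -2.90, the log2 fold change of Perp -2.07, the log2 fold change of Cdsn 1.96 and the log2 fold change of Gja1 3.14. Among markers, the log2 fold change of Sprr1b came to -0.0829 to 3.81 with 1 left out, and the log2 fold change of Sprr2d to 1.69 with voom, 1.80 with the block and -2.59 to 2.86 with 1 left out. At this depth, Cldn3, Cldn7 and Dsg4 rest on few counts.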

Other observations

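Markers of other cells in the ulcers were read from the same fit. Of 7 macrophage markers, 3 were called higher in ointment ulcers, where 0.692% of all genes were, and Csf1r, Mrc1, Lyz2 and Fcgr1 did not pass (log2 fold changes 0.55 to 1.01, edgeR adjusted p = 0.0816 to 0.188). Adgre1, which encodes the macrophage surface protein F4/80, averaged 271 ± 19.4 CPM with ointment and 148 ± 17 CPM with saline (SD, n = 5 each, log2 fold change 0.87, edgeR adjusted p = 0.00649), and Cd68 and Trem2 rose with it (0.78 and 0.83, edgeR adjusted p = 0.0125 and 0.0325), all without overlap. Of 6 neutrophil markers, edgeR called 0, and 6 had an unadjusted p below 0.05 on the higher side, led by Mmp8 and S100a8 (edgeR adjusted p = 0.0635 and 0.130). At that level 8.59% of all genes were higher and 8.56% lower. Of 7 melanocyte and Schwann cell markers 3 were called lower, Dct, Tyrp1 and Sox10 (log2 fold changes -2.04, -2.47 and -1.45, edgeR adjusted p = 0.0165, 0.0285 and 0.0401). The Langerhans cell gene Cd207 was called lower (-1.05, edgeR adjusted p = 0.0343) and Cd74 was not (-0.19). Of 10 endothelial markers edgeR called 0, with 4 lower at an unadjusted p below 0.05, led by Pecam1 (-0.52) and Esam (-1.12). Of 7 fibroblast markers it called 0, with 1 lower and 1 higher at that level (Dcn -0.22, Pdgfra 0.38), and of 5 skeletal muscle markers it called 0, with 0 at that level (Myh4 -0.80, Ckm -0.60).

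Among keratinocyte markers, the laminin chain gene Lamb3 was the 1 of 12 basal markers called, higher with ointment (173 ± 41.2 CPM, against 68.7 ± 16.9 CPM with saline, SD, n = 5 each, edgeR adjusted p = 0.0218), and its partner Lama3 had a log2 fold change of 1.46 (edgeR adjusted p = 0.0964). In the cornified list Krtdap was lower (353 ± 87.7 CPM with ointment and 704 ± 69.5 CPM with saline, edgeR adjusted p = 0.0222) and Krt2 higher (47.5 ± 24.3 CPM with ointment and 0.257 ± 0.224 CPM with saline, edgeR adjusted p = 0.00273). Of 7 wound-activated markers edgeR called 0, with 1 higher at an unadjusted p below 0.05 (Sprr1b 3.51, and Sprr2d -1.88). The inner root sheath keratins Krt71, Krt27, Krt73, Krt25 and Krt28 were called lower, with log2 fold changes of -8.46, -6.29, -7.02, -8.72 and -5.93. Of 8 simple and glandular epithelium markers 1 was called, Krt79, lower at -1.52 (edgeR adjusted p = 0.0341), and Epcam was at -0.77 (edgeR adjusted p = 0.0519). Dst and Trp63 stand in a basal and a pathway list, Casp14 in a cornified and a pathway list, and Cdh5 in an endothelial and a pathway list.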
